A study of Mus musculus with 12 samples.

Results

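Transcripts whose introns carried more RNA than their exons were selected from mouse embryonic stem cells (mESCs). Members were transcripts with an exonic and an intronic value in all 12 libraries, a mean exonic value of at least 20 over the 6 total RNA libraries, and a mean intronic value above that exonic mean. Of 33103 transcripts that met every condition but the last, 987 (2.98%) were members, out of 121429 transcripts in the whole series. The cells were mESCs of the male line DTCM23/49, for which the labels name no genetic change, grown with leukemia inhibitory factor, and all of them received 200 µM 4-thiouridine (4sU) for 15, 30 or 60 min. This uridine analog enters RNA made during the pulse, and RNA that carries it can be biotinylated and pulled down as labeled RNA. Each time has a labeled and a total RNA library from either of 2 biological replicates, which makes 6 labeled and 6 total RNA libraries. Plates without 4sU are not among them, so total RNA also comes from treated cells. The replicates were sub-cultures of 1 confluent culture. Labeled RNA was pulled down from extracted RNA of the same cultures as the total RNA. P-values therefore measure the spread between libraries of such sub-cultures, which includes that of the pull-down and library preparation.

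Introns are removed from most pre-mRNAs during or soon after transcription and then degraded, so that exons usually outweigh introns once RNA is corrected for length. RNA from an annotated intron can also come from a retained intron, from an excised intron that is not degraded, from an exon of another isoform or gene that lies within it, or from a small RNA encoded there. Labeled RNA, being younger, usually holds more unspliced RNA than total RNA. The values are abundances per unit of length, scaled over exons and introns together to the same sum in every library (about 20 times TPM), so exons and introns of 1 transcript can be compared. Sequencing depth is unknown from them, and no counting error can be given.

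The sequences at the annotated introns of a few members show part of what was counted as intronic. They were read from the NCBIM37 (mm9) genome with GENCODE M1 annotation. The submitters' processing notes name mm10, so the annotation was joined by transcript identifier and its coordinates are those of NCBIM37. The member with the most RNA, Malat1 (ENSMUST00000173499, a lincRNA transcript on the minus strand), is annotated with an intron of 271 bases at chr19:5801967-5802237. All of that intron is exon in another Malat1 isoform. It is shown whole, 5′ to 3′ on the transcript's strand, with the GT and AG at its ends in capitals.
Malat1 intron: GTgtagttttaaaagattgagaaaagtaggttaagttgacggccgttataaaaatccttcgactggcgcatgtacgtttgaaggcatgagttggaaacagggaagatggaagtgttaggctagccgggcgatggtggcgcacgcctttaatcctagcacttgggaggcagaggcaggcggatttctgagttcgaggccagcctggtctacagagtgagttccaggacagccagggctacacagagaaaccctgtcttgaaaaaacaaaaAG

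For 8 other members, the 5′ end of the annotated first intron is shown on the transcript's strand, as 6 exonic and 10 intronic bases with the first 2 intronic bases in capitals. They stand for the members described next: splicing regulators, members with the highest ratios, members whose exons outweighed introns in labeled RNA, and introns that do not start with GT.
Srsf2 (chr11:116711668-116712169, minus): aaaaagGTtattttgt
Wiz (chr17:32524763-32525548, minus): ttgaagGTatttatag
Terf2ip (chr8:114536043-114539236, plus): gcggagGTgaggccgg
Zfp605 (chr5:110539562-110540915, plus): tgccagGTaaatgaag
Mphosph8 (chr14:57312416-57314505, plus): ctgaagGTaagcaagc
Atf2 (chr2:73718439-73730531, minus): ggaaagGTgagtaatg
Cd84 (chr1:173769930-173770710, plus): gctctgGGaaggggtc
Gm16436 (chrX:55883540-55884484, minus): ctacagCTctttccag
The first 6 begin with GT, as most introns do. The only annotated intron of Gm16436 begins with CT and the first of the 8 introns of Cd84 with GG. That first intron holds 781 of the 47731 intronic bases of Cd84, so such ends show only part of what was counted. The corresponding 3′ ends read tatttttgtgcactAGgcgcag for Srsf2 and attcatatgttcaaAAaaaatt for Gm16436, with the last 2 intronic bases in capitals.

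In total RNA, which chose the members, the median exonic mean was 38.5 (up to 8999) and the median intronic mean was 76.5 (20.5 to 55403). The ratio of the intronic to the exonic mean had a median of 1.54 with quartiles of 1.18 and 2.58, was above 2 for 345 members and above 10 for 43, and reached 105.9. These values describe the choice and were not tested. Members held 18.8 to 24.6% of all intronic RNA in the total RNA libraries, but 0.517 to 0.562% of the exonic RNA. Just inside the limit were Pole4, Recql and ENSMUST00000176519, whose ratios were between 1.0004 and 1.0008. Just outside were C330007P06Rik, C330013J21Rik and Sumo3, with ratios between 0.997 and 0.999.

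**Figure D1:**
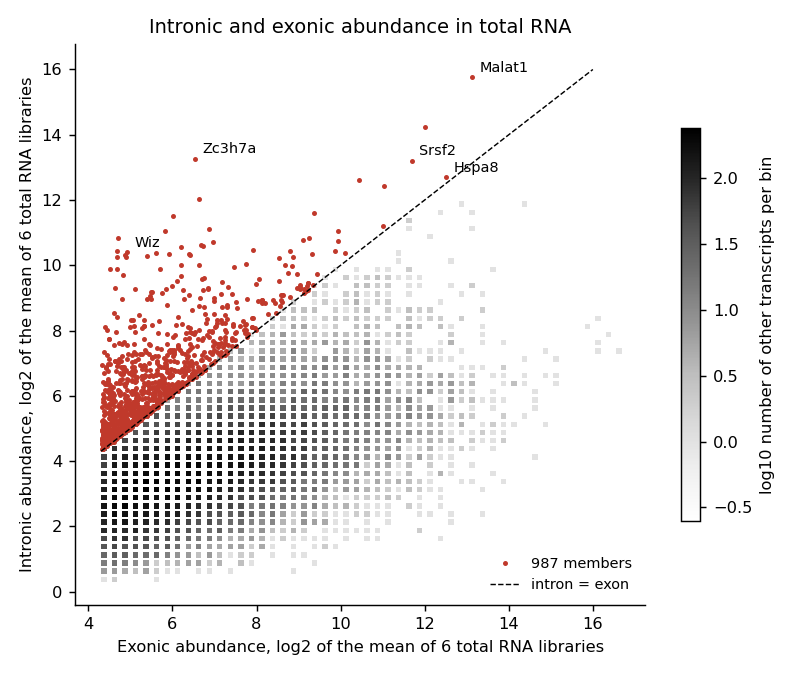
Mean intronic abundance against mean exonic abundance over the 6 total RNA libraries, both on a log2 axis; red points are the 987 members, grey squares count the other 32116 transcripts and the dashed line marks equality. Members lie above the line by construction, mostly close to it, and Malat1, Srsf2, Zc3h7a and Wiz stand well above it.

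Libraries differed before any member is considered. Intronic RNA made up 14.8% and 13.9% of the RNA in the labeled libraries of replicate 1 at 15 and 60 min, but 7.24% and 6.99% in those of replicate 2, and 9.35% and 10.8% at 30 min. Total RNA libraries had 6.53 to 7.41%. In total RNA, the 15 min library of replicate 2 and the 60 min library of replicate 1 deviated together across members (Pearson's r = 0.54 for deviations of the log2 ratio over 987 members, which share genes and reads). Without these 2 total libraries, 897 of the 987 members still had the higher intronic mean. Markers of mESCs (10 genes, among them Pou5f1 and Nanog) had median exonic values of 165 to 6754 in total RNA, whereas the highest median of 18 markers of fibroblasts, primitive endoderm, trophectoderm, mesoderm and neural cells was 34.6. Of these 18, Col3a1, Pdgfrb, Sox17, Cdx2, Neurog2 and Sox1 had no value in any total RNA library, and Sox1 has no row in the table. The neural marker Pax6, with a median of 26.9, ran from 16.1 to 140 in total RNA, against 141 to 177 for the mESC marker Zfp42. In such bulk RNA, fewer cells of a type and less RNA per cell cannot be told apart.

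The labeled libraries entered the choice of members only through the need for a value above 1 in exons and introns, which all 33103 transcripts met, and not through their ratio. The question they answer is whether introns also outweighed exons in the pulled-down RNA. Both kinds of RNA came from the same cultures and share 1 annotation, so overlaps of introns with exons act on both. Agreement between them was therefore partly set in advance. The series has no pull-down from unlabeled cells, so carry-over of unlabeled RNA is unknown. At 15 and 60 min, intronic shares of labeled replicate 2 (7.24% and 6.99%) lay within those of total RNA (6.53 to 7.41%). In the means, introns outweighed exons in labeled RNA for most members. The ratio of means in labeled RNA had a median of 1.97, with quartiles of 1.42 and 3.04 and a range of 0.297 to 59.0. It was above 2 for 483 members and above 10 for 43. The intronic mean was above the exonic mean for 926 members (93.8%), against 6.59% of all 33103 transcripts, and introns were higher in each of the 6 labeled libraries for 592 members (60.0%), against 2.09% of all. For 9 members introns were higher in none of the 6.

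The log2 ratio of intronic to exonic values (each with 1 added) was tested against 0 over the 6 labeled libraries with limma. Introns were higher for 547 of 987 members (55.4%), against a background of 1.88% of all transcripts tested, and exons for 7 members against a background of 82.3% (84.2% in either direction). The median log2 ratio was 0.93 for members and −1.99 over all transcripts. limma estimated the same standard error of 0.40 for every transcript, so that the test amounts to a minimum of 0.82 on the mean log2 ratio. With each transcript's own spread instead, introns were higher for 509 members and for 569 of all 33103 transcripts. Leaving out the 30 min library of replicate 1 or of replicate 2 left 387 or 383 such members, against 1.26% or 1.23% of all transcripts. Leaving out the 2 labeled libraries of replicate 2 at 15 and 60 min, chosen after the data were seen, gave 842, against 5.78% of all transcripts.

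**Figure D2:**
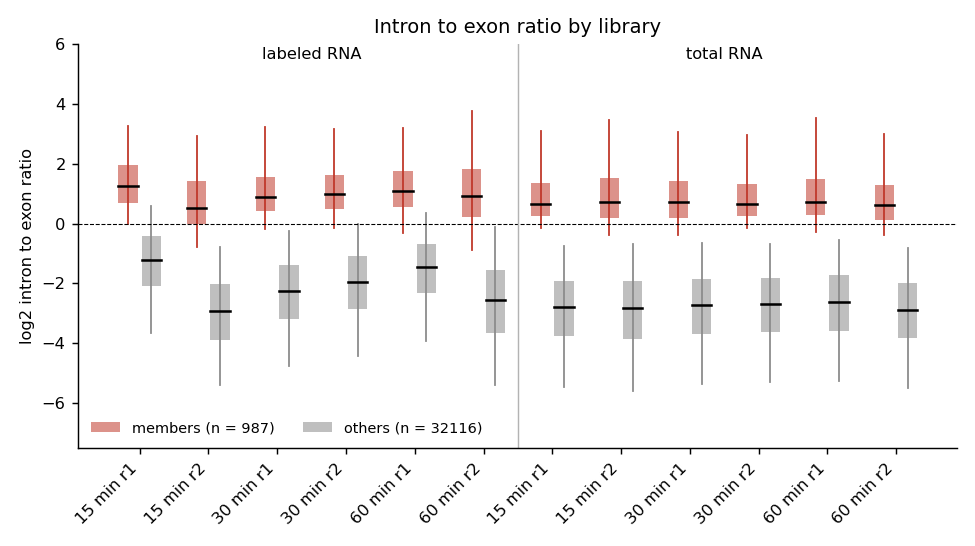
Log2 ratio of intronic to exonic abundance in each library (r1 and r2, replicates 1 and 2) for the 987 members (red) and the other 32116 transcripts (grey); boxes span the quartiles, black bars the medians, and thin lines the 5th to 95th percentiles. Medians of members lie between 0.53 and 1.27 in labeled and 0.61 and 0.73 in total RNA, while medians of the others lie below 0 in all 12 libraries.

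Per library, the members' median log2 ratio in labeled RNA was 1.27 and 0.53 at 15 min, 0.89 and 0.98 at 30 min, and 1.08 and 0.92 at 60 min for replicates 1 and 2. In total RNA it ranged from 0.61 to 0.73. The medians of the other transcripts ranged from −2.93 to −1.20 in labeled RNA and from −2.89 to −2.60 in total RNA. The total values were used in the choice, so nothing is read from the difference between labeled and total RNA in these medians.

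Malat1, a nuclear long noncoding RNA of nuclear speckles, was the most abundant member. Its exonic value in labeled RNA was 4880 at the lowest, 9755 at the median and 18967 at the highest, and that of its intron was 30232, 54468 and 107373. Exonic values in total RNA were between 5406 and 12857, and intronic values between 34075 and 79567. Labeled and total RNA overlapped in both, and the largest value of each came from the labeled 15 min library of replicate 1. The log2 ratio lay between 2.48 and 2.84 in labeled and between 2.55 and 2.71 in total RNA, and its mean in labeled RNA was 2.57 ± 0.40 (SE, n = 6, limma adjusted p = 5.97e-10). As the sequence above lies within an exon of another isoform, reads of that isoform count as intronic for this transcript.

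Introns that are exons elsewhere were common among the abundant members. Hspa8, which encodes the constitutive HSC70 chaperone, had 98.2% of its intronic bases in exons of other Hspa8 isoforms, and these introns hold 3 snoRNAs. Its intronic values in labeled RNA ran from 3832 to 8191 and its exonic values from 3861 to 6327, so the ranges overlapped, and the log2 ratio of 0.17 ± 0.40 (SE, n = 6) was not called (limma adjusted p = 0.695). Gm16436 is a transcribed processed pseudogene on chromosome X whose annotated intron, printed above with its CT start, lies for 94.1% of its length in exons of another gene. Its intronic values in labeled RNA (4498 to 6981) were all above its exonic values (1410 to 3104), with a log2 ratio of 1.45 (limma adjusted p = 0.000507). Sequences like a processed pseudogene can share reads with their parent gene, so these values are uncertain.

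Of the other abundant members, 4 carry identifiers that GENCODE M1 does not hold. ENSMUST00000189515 had intronic values from 15345 to 23052 and exonic values from 3463 to 5741 in labeled RNA, with no overlap and a log2 ratio of 2.08 (limma adjusted p = 5.43e-07). ENSMUST00000192564 also had a positive log2 ratio of 2.45 (limma adjusted p = 3.74e-09). ENSMUST00000186317 and TCONS_00050084 had ratios of 0.57 and −0.10 that were not called (limma adjusted p = 0.174 and 0.818).

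Splicing regulators came next. In a list of CLK, Tra2 and SR genes and their partners, 19 of 185 eligible transcripts (10.3%) were members, against 2.98% of all eligible transcripts. They came from 7 genes (Luc7l, Luc7l2, Rbm39, Srsf1, Srsf2, Srsf4 and Srsf6). Introns were higher in labeled RNA for 15 of the 19, against 55.4% of all members and 1.88% of all transcripts, and exons for none. Luc7l gave 9 of the 19 and 7 of the 15, and Rbm39 gave 4 and 4. Isoforms of these 2 genes, which share reads, thus make up most of the list's members. The median log2 ratio of these 19 was 1.36, against −2.43 for all eligible transcripts of the list. SR proteins bind exonic enhancers and several control their own splicing through alternative exons or retained introns.

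Srsf2, an SR protein gene, was annotated as a retained-intron transcript whose intron lies wholly in exons of other Srsf2 isoforms. Its exonic values in labeled RNA ran from 2803 to 3810 with a median of 3320. Its intronic values were 7260 and 9445 at 15 min, 9112 and 8075 at 30 min, and 7873 and 2528 at 60 min for replicates 1 and 2. Thus 5 of the 6 labeled libraries had more intronic RNA and the 60 min library of replicate 2 did not. In total RNA the intronic values (8798 to 10366) did not overlap the exonic values (3116 to 3639). The log2 ratio in labeled RNA was 1.04 (limma adjusted p = 0.0128). This call was lost without replicate 1 (0.75), without the labeled 60 min library of replicate 1 (0.74), without the 30 min library of replicate 1 (1.03) or 2 (1.05), and with the transcript's own spread.

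Srsf1, another SR gene with an intron that is exonic in other isoforms, had intronic values of 1032 to 1665 in total RNA and 420 to 1150 in labeled RNA. Its exonic values were 865 to 994 in total and 879 to 1043 in labeled RNA. Introns were therefore higher in all 6 total libraries but in 3 of 6 labeled libraries, and the log2 ratio in labeled RNA was −0.16 (limma adjusted p = 0.708). Srsf6 had a ratio of means of 1.33 in total and 2.14 in labeled RNA, and introns higher in all 12 libraries (log2 ratio in labeled RNA 1.012, limma adjusted p = 0.0153), a call that was lost without the 30 min library of replicate 1 (0.97) or 2 (1.06).

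Luc7l, a homolog of a yeast component of the U1 snRNP, had more members than any other gene. All 9 of its eligible transcripts were members, introns were higher in labeled RNA for 7 of them, and their ratios of means ran from 1.33 to 14.8 in total and from 1.19 to 10.4 in labeled RNA. As isoforms of 1 gene they share reads and are not independent. For the Luc7l transcript with the most exonic RNA, intronic values were 380 to 426 in labeled and 677 to 776 in total RNA, without overlap, while exonic values were 124.8 to 204 and 107 to 165. The difference of its intronic values between labeled and total RNA was −0.86 ± 0.18 on the log2 scale (SE). High intronic values in total RNA chose the members, which by itself lowers such differences, so nothing is read from it. Introns remained above exons in labeled RNA in all 6 libraries (log2 ratio 1.36, limma adjusted p = 0.00109).

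For the related gene Luc7l2, intronic values in labeled RNA were 77.7 to 295 against exonic values of 35.7 to 72.5, which also did not overlap (log2 ratio 1.69, limma adjusted p = 4.58e-05). Rbm39, an SR-related splicing factor, contributed 4 of its 24 eligible transcripts, and introns were higher in labeled RNA for all 4. Its most abundant member had intronic values of 218 to 374 and exonic values of 97.2 to 186 in labeled RNA, without overlap (log2 ratio 0.93, limma adjusted p = 0.0266). Its call was lost without replicate 1 (0.66), without the labeled 60 min library of replicate 1 (0.73), and without the 30 min library of replicate 1 (0.92) or 2 (0.93).

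Host genes of small RNAs formed a small part of the members. In a list of snoRNA host genes, 4 of 108 eligible transcripts (3.70%, against 2.98% of all) were members, 3 of Gas5 and 1 of Snhg3. Introns were higher in labeled RNA for 2 of the 4, against 55.4% of all members and 1.88% of all transcripts. Gas5 is a spliced noncoding RNA whose introns encode snoRNAs, 9 of which lie in the introns of its most abundant member. That transcript had intronic values of 412 to 803 in total RNA and 701 to 1857 in labeled RNA. Exonic values were 352 to 820 in total and 388 to 1653 in labeled RNA. Introns outweighed exons in 5 of 6 labeled libraries, the exception being the 60 min library of replicate 2, with a log2 ratio of 0.81 that missed the threshold (limma adjusted p = 0.0545). Of its intronic bases, 94.0% are exonic in other Gas5 isoforms.

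Snhg3 had intronic values of 766 to 1460 and exonic values of 710 to 1505 in labeled RNA, which overlapped (log2 ratio 0.09, limma adjusted p = 0.835). The whole of its intron lies within exons of a gene on the other strand. Across all matched members, 17 transcripts of 7 genes had an annotated snoRNA in an intron, and both the exonic and the intronic mean were higher in labeled than in total RNA for 16 of them. The exonic mean was higher in labeled RNA for 63.5% of all members and the intronic mean for 79.4% (34.9% and 97.5% of all transcripts), isoforms of these genes share reads, and the total values were used in the choice. A miRNA lay in an intron of 9 members of 7 genes, and the exonic mean was higher in labeled RNA for 3 and the intronic mean for 4. None of 41 eligible transcripts of listed miRNA host genes was a member.

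The 8 genes with the highest called ratios in labeled RNA were ranked by the member of each gene with the most exonic RNA. A Psmd13 member with less exonic RNA, described below, had a log2 ratio of 5.64 and is not among them. Their exonic means in total RNA were below 100, as for most members, of which 168 had at least 100. Wiz, a zinc finger protein that associates with G9a-type histone methyltransferases, had exonic values of 15.1 to 31.3 and intronic values of 800 to 1604 in labeled RNA. In total RNA these were 24.8 to 34.5 and 1148 to 1542. The groups did not overlap in either kind of RNA, and the log2 ratio in labeled RNA was 5.83 ± 0.40 (SE, n = 6, limma adjusted p = 4.07e-45). Terf2ip, which encodes the telomere protein RAP1, had exonic values of 27.6 to 46.5 and intronic values of 1668 to 2129 in labeled RNA (log2 ratio 5.81, limma adjusted p = 8.06e-45). Of its intronic bases, 28.8% lie in exons of a gene on the other strand.

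Zfp605, a zinc finger gene, had intronic values of 3805 to 7975 and exonic values of 47.6 to 120 in labeled RNA (log2 ratio 5.82, limma adjusted p = 5.55e-45). Its highest intronic and lowest exonic values both came from the 60 min library of replicate 2. Stk31, a kinase gene known from germ cells, showed the same: that library had an intronic value of 1185 and an exonic value of 9.93, while the other 5 had 410 to 665 and 14.3 to 28.7 (log2 ratio 4.78, limma adjusted p = 7.05e-31). Tex21 had intronic values of 588 to 1483 and exonic values of 23.9 to 37.7 in labeled RNA (log2 ratio 5.32). Cd84, a SLAM family receptor of blood cells, had intronic values of 660 to 1562 and exonic values of 28.2 to 156. ENSMUST00000200167 had a log2 ratio of 4.63.

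The remaining gene of this group, 1110005A03Rik, lies on the plus strand of chromosome 11, and its intron of 4861 bases spans the Srsf2 transcript described above, on the minus strand. Exons on the other strand covered 60.9% of this intron. Its intronic values were 1123 to 2633 in labeled and 1744 to 2353 in total RNA, against exonic values of 37.1 to 129 and 43.3 to 71.7 (log2 ratio in labeled RNA 4.66, limma adjusted p = 2.31e-29). The sources used here do not say whether counting used the strand, so RNA of Srsf2 and of this intron cannot be told apart. Its lowest intronic value, like that of Srsf2, came from the labeled 60 min library of replicate 2.

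**Figure D3:**
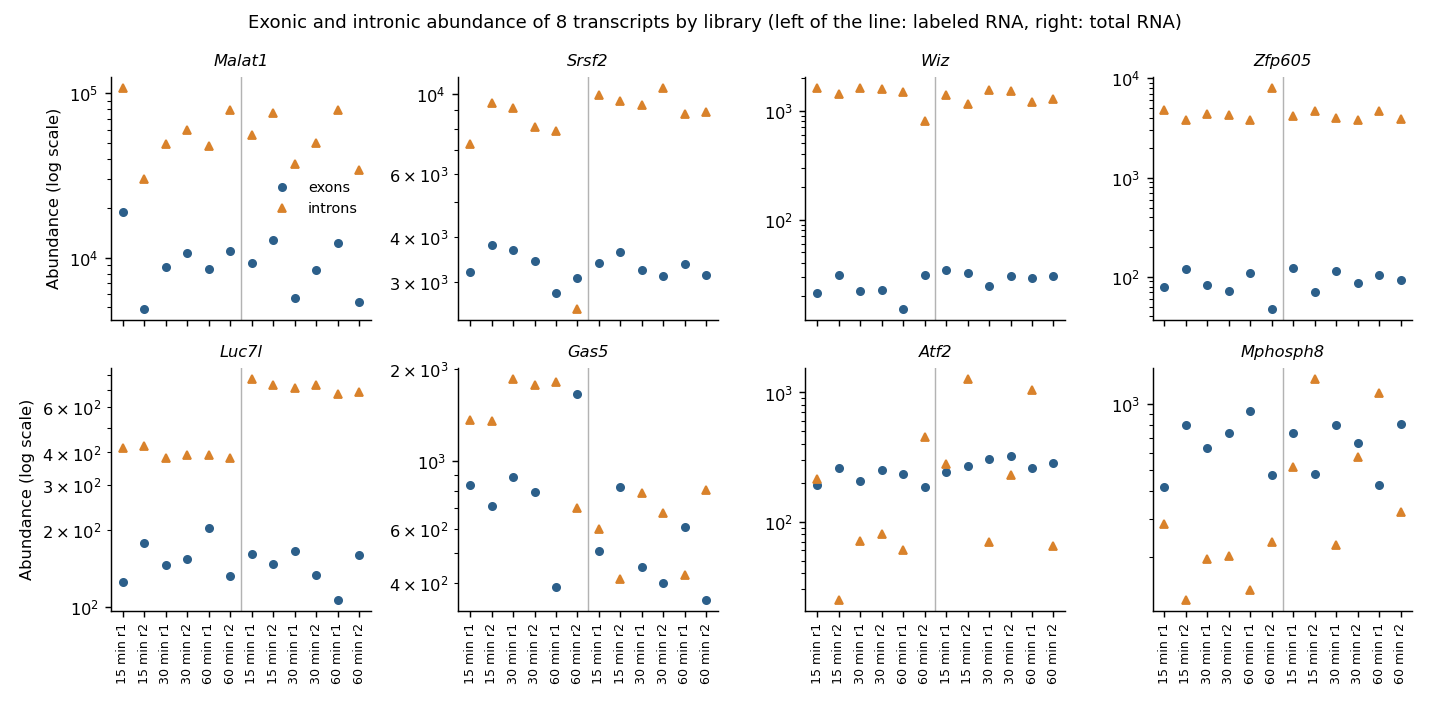
Exonic (blue circles) and intronic (orange triangles) abundance of 8 members in each of 12 libraries, on log axes that differ between panels. Introns stay above exons in every library for Malat1, Wiz, Zfp605 and Luc7l, Srsf2 and Gas5 reverse in the labeled 60 min library of replicate 2 (Gas5 in 2 total libraries too), and Atf2 and Mphosph8 have high intronic values mainly in the total 15 min library of replicate 2 and the total 60 min library of replicate 1.

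At the other end, exons were higher in labeled RNA for 7 members. Mphosph8, a chromatin reader of the HUSH silencing complex, gave 2 of them. Its more abundant member had exonic values of 417 to 932 and intronic values of 128 to 283 in labeled RNA, and these did not overlap (log2 ratio −1.74, limma adjusted p = 2.74e-05). In total RNA its intronic value was 1305 in the 15 min library of replicate 2 and 1123 in the 60 min library of replicate 1, but 228 to 571 in the other 4, with exonic values of 427 to 813. Over these other 4 libraries the exonic mean was 755 and the intronic mean 409, so that it would not have been a member on those 4 alone.

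Atf2, a bZIP transcription factor gene, gave another 2. Its intronic values were 1277 and 1039 in the same 2 total RNA libraries and 65.4 to 278 in the other 4, and exonic values were 245 to 325 in all 6. In labeled RNA, intronic values ran from 25.03 to 450 and exonic values from 186 to 261, and introns were higher in the 15 min library of replicate 1 and the 60 min library of replicate 2 (log2 ratio −1.16, limma adjusted p = 0.00526). Jarid2, a cofactor of Polycomb repressive complex 2, was alike, with intronic values of 925 and 976 in those total libraries and 163 to 347 in the other 4 (log2 ratio in labeled RNA −0.99, limma adjusted p = 0.018). Without the 2 total libraries the intronic mean was 161 for Atf2 and 256 for Jarid2, below exonic means of 290 and 409. Both calls were lost with each transcript's own spread, without the labeled 15 min library of replicate 2 (−0.58 and −0.64), without the 60 min library of replicate 1 (−0.63 and −0.60) and without the 30 min library of replicate 2 (−1.15 and −1.02), and that of Jarid2 also without the 30 min library of replicate 1 (−0.96).

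Both these total RNA libraries were over 2 times every other total RNA library in the intronic value of 24 members from 13 genes (2.43% of members, Atf2 and Jarid2 included but not Mphosph8), against 80 of all 33103 transcripts (0.242%). High intronic values in total RNA are what the choice asks for, so this excess follows in part from the choice and nothing is read from it. Among them was Zc3h7a, a zinc finger gene that was chosen here after its values were seen. Its member ENSMUST00000140898 had the highest ratio in total RNA (105.9), with intronic values of 19881 and 17826 in the 2 libraries and 2076 to 8739 in the other 4. In labeled RNA its intronic values ran from 325 to 5353 and its exonic values from 46.1 to 129, without overlap (log2 ratio 4.06, limma adjusted p = 1.08e-22). What moved these introns together was not tested.

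In the last 2 members with higher exons in labeled RNA, the exonic rather than the intronic values differed most between the kinds of RNA. Gm13936, an antisense transcript, had exonic values of 22.1 to 51.0 in total and 63.0 to 138 in labeled RNA, which did not overlap, and intronic values of 54.9 to 61.9 and 37.8 to 58.4, which did. Its log2 ratio in labeled RNA was −0.95 (limma adjusted p = 0.0235), a call lost without the 30 min library of replicate 1 (−1.01) or 2 (−0.89) or the 60 min library of replicate 1 (−0.89). ENSMUST00000176966 had an exonic mean of 69.8 in total and 214 in labeled RNA, with intronic means of 190 and 132 (log2 ratio −0.89, limma adjusted p = 0.0325).

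Zinc finger genes named Zfp contributed 33 of 597 eligible transcripts (5.53%, against 2.98% of all) from 21 genes. Introns were higher in labeled RNA for 17 of the 33, against 55.4% of all members, and exons for none. The median log2 ratio was 0.84 for these members and −1.76 for all eligible transcripts of the list. Besides Zfp605, introns were higher for Zfp141 (intronic values 268 to 344, exonic values 53.4 to 124.7 in labeled RNA, log2 ratio 1.84, limma adjusted p = 9.13e-06). Zfp125, Zfp57, Zfp184 and Zfp260 had log2 ratios of 0.31, 0.80, 0.65 and 0.33 and were not called. Zfp57, which keeps imprints methylated, nevertheless had introns above exons in all 6 labeled libraries (300 to 753 against 210 to 415, limma adjusted p = 0.0574). The gene with the second most members was Zfp346, with 8 of 11 eligible transcripts, of which introns were higher in labeled RNA for 5.

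Cytosolic ribosomal protein genes were nearly absent, with 1 of 307 eligible transcripts, from Rpl26. Its intronic values were 142 to 195 in total and 238 to 343 in labeled RNA and its exonic values 33.9 to 57.6 and 59.9 to 91.5, with no overlap between the kinds of RNA in either (log2 ratio in labeled RNA 1.96, limma adjusted p = 2.38e-06). No transcript of the pluripotency genes (30 eligible) or of the listed glycosylation genes (8 eligible) was a member. Of 7 eligible transcripts of nuclear long noncoding RNAs, Malat1 was the only member. As 2.98% of all eligible transcripts were members, these shares are counts only and were not tested.

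Members were spread over 514 named genes in M1, of which 396 had 1 member and 118 had more, and in 150 genes every eligible transcript was a member. After Luc7l and Zfp346, 7 members each came from Psmd13, Fbxw2 and Echdc2. Psmd13 encodes a proteasome lid subunit, and introns were higher in labeled RNA for all 7 of its members, with ratios of means from 6.30 to 50.2. In its member with the highest ratio, chosen after its values were seen, intronic values were 963 to 1438 in labeled and 1110 to 1516 in total RNA against exonic values of 15.2 to 33.3 and 21.1 to 37.3. Fbxw2, which encodes an F-box protein, had ratios near 1 (0.851 to 2.01 in labeled RNA), and introns were higher for 1 of 7. Echdc2 had 2 of 7, and Mtmr7, a myotubularin-related phosphatase gene, had all 6 of its eligible transcripts among the members and introns higher for 5. For comparison, introns were higher for 55.4% of all members and 1.88% of all transcripts, and isoforms of 1 gene share reads.

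Labeled and total RNA were also compared directly. The total values chose the members for high introns and low exons, which by itself moves their intronic and ratio differences down and their exonic differences up, so the shares and backgrounds are given as a description and nothing is read from how they differ. On the log2 scale, intronic values of members were 0.31 higher in labeled RNA at the median, and exonic values 0.10 higher. Over all transcripts the medians were 0.54 and −0.16. Introns were called higher in labeled RNA for 131 members (13.3%) and lower for 36 (3.65%), against backgrounds of 18.2% and 0.157% (18.3% in all). Exons were called higher for 97 (9.83%) and lower for 42 (4.26%), against 3.7% and 16.5% (20.2% in all). The ratio was called higher for 61 (6.18%) and lower for 22 (2.23%), against 24.8% and 0.106% (24.9% in all). When each library was centred on its median, introns were higher for 49 and lower for 136 members, against 8.17% and 9.47% of all transcripts, and exons were higher for 174 and lower for 34, against 7.76% and 12.7%. Centring moved the median difference of all transcripts from 0.54 to −0.01 for introns and from −0.16 to −0.04 for exons, so these directions are relative to it. Without replicate 1 the members called in either direction numbered 0 for exons, 48 for introns and 12 for the ratio, against 0%, 5.90% and 1.79% of all transcripts. Without replicate 2 they numbered 8, 207 and 122, against 0.341%, 19.4% and 47.9%.

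The extremes of this comparison are listed as a description, only for the transcript with the most exonic RNA of each gene. Over all members, intronic differences ran from −2.32 to 2.02 on the log2 scale. Uqcrq, which encodes a subunit of respiratory complex III, had intronic values of 201 to 345 in total and 591 to 1507 in labeled RNA. Its difference was 1.82 ± 0.22 (SE) on the log2 scale. The intronic difference was 1.89 for Irf1, an interferon-responsive transcription factor gene, and 1.84 for Lsm3, which encodes a subunit of the Sm-like ring of U6 snRNP. The lowest intronic differences listed were those of ENSMUST00000188142 (−2.32), another Zc3h7a transcript (−2.22) and C230081A13Rik (−1.99). The Zc3h7a member described above, with less exonic RNA, had −2.29. All of these belong to the genes with high intronic values in 2 total libraries. In exons, Gm11974, with 1 annotated snoRNA in its introns, had 140 to 238 in total RNA and 225 to 872 in labeled RNA (1.53 ± 0.29, SE). Gabpa, an ETS factor gene, had 356 to 939 in total and 211 to 470 in labeled RNA (−1.11 ± 0.24, SE), and these ranges overlapped.

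**Figure D4:**
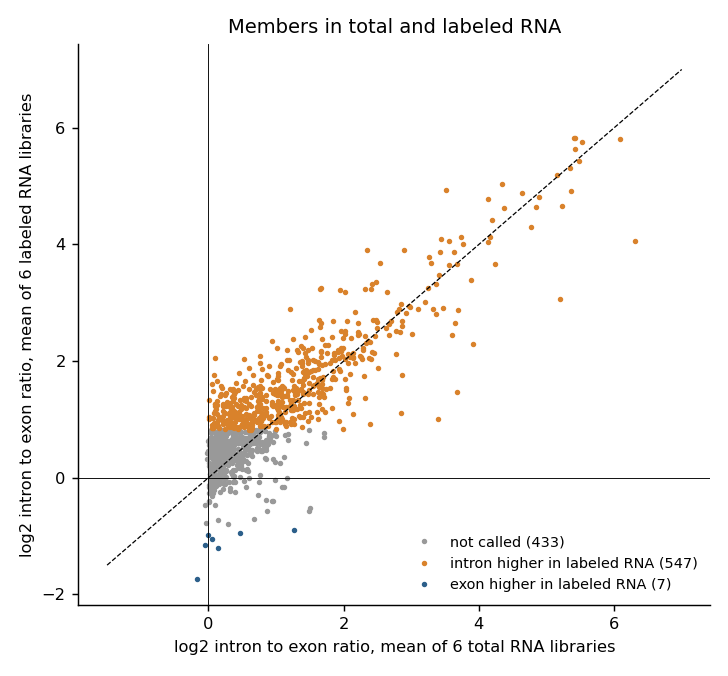
Mean log2 intron to exon ratio of each member in the 6 labeled libraries against that in the 6 total libraries; orange marks the 547 members with introns higher in labeled RNA, blue the 7 with exons higher, grey the 433 others, and the dashed line marks equal ratios. Most members lie near or above the line, and the boundary of the orange points at 0.82 shows the common standard error of the test.

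Between 60 and 15 min in labeled RNA, limma called no member for the ratio, the introns or the exons, against backgrounds of 0% each. At an unadjusted p under 0.05 there were 0, 2 and 4 members. The median differences of members were 0.07 for the ratio, −0.10 for introns and −0.14 for exons on the log2 scale, and those of all transcripts were 0.06, −0.04 and −0.11. The standard error of the difference was 0.99 for the ratio, and changes several times that size could also be missed, so the absence of calls does not show that values stayed the same. Without the labeled 60 min library of replicate 1, introns were called for 10 members, 5 in each direction, and for 22 of all transcripts, 5 higher and 17 lower. Without that of replicate 2 they were called for 1 member, the only call among all transcripts. In both cases 60 min was a lone library, assumed to vary like those of the other times.

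The annotation of members was described for those that M1 holds. Of the 987, 734 (74.4%) were found there, against 83.6% of the other eligible transcripts. As this is under the 80% set as a minimum, a check of structure over all members is void, and the values below describe the matched transcripts. Of those not matched, 18 carry assembled TCONS identifiers and 5 are lincRNA entries (linc1239, linc1413, linc1450, linc1537 and linc1572), of which linc1239 had introns higher in labeled RNA (log2 ratio 1.44, limma adjusted p = 0.000546).

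For matched members, the median was 3 introns and 868 exonic bases, against 6 introns and 1718 bases for the 26835 other matched transcripts, and 24.1% of members had 1 intron against 7.45%. The intronic length (10564 and 14203 bases) and intronic GC content (43.1% and 43.6%) were closer. At least 50% of the intronic bases lay in exons of the same gene for 75 members (10.2%, against 3.61%), and at least 10% lay in exons of other genes for 111 (15.1%, against 3.29%), for 85 of them on the other strand. Introns were higher in labeled RNA for 40 of the 75 and 60 of the 111, and for 375 of the 658 members with under 50% in exons of the same gene. Over all members this share was 55.4%, and over all transcripts 1.88%, so nothing is read from these counts. For 1 matched member M1 has no intron.

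Protein-coding transcripts made up 42.9% of matched members against 63.7% of the others, and processed transcripts without an open reading frame 26.0% against 14.4%. Retained-intron transcripts made up 12.4% against 14.4%, and nonsense-mediated decay transcripts 8.58% against 6.33%. Antisense and lincRNA transcripts were few, but 26 (21.7%) of eligible antisense and 16 (23.9%) of eligible lincRNA transcripts were members. Among the lincRNA members, Gm12139 (log2 ratio 2.93), Gm11815 (2.70), Gm13393 (2.39) and the Malat1 transcript had the highest ratios in labeled RNA. Introns were higher there for 9 of the 16, against 55.4% of all members and 1.88% of all transcripts. Of 3515 introns of matched members, 97.3% had GT and AG at their ends, against 98.8% of 223185 introns of the others. Ends other than GT-AG, GC-AG and AT-AC, as in Gm16436 and Cd84, were found in 1.51% against 0.325%.

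**Figure D5:**
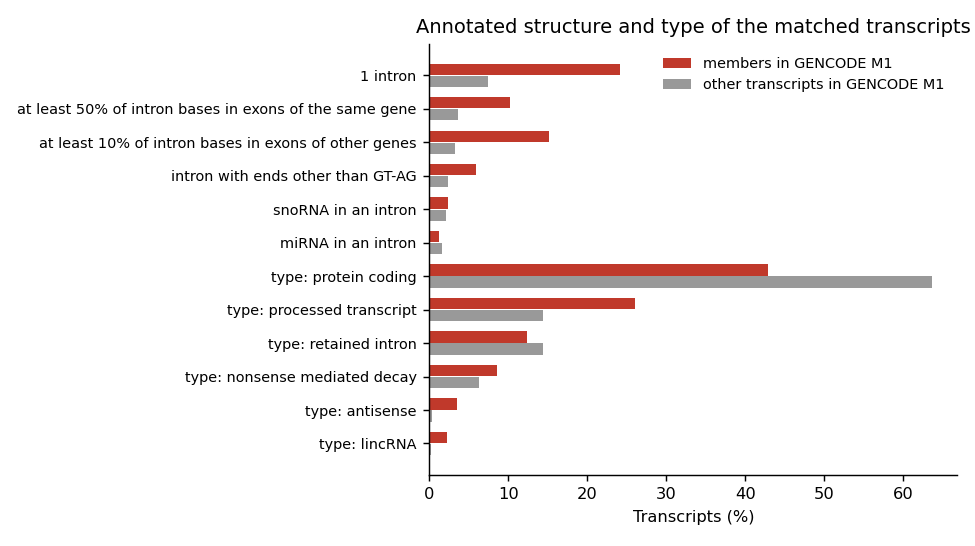
Share of matched transcripts with each annotated feature (upper 6 rows) and of each transcript type (lower 6 rows), in percent, for 734 members (red) and 26835 others (grey) found in GENCODE M1. The red bar exceeds the grey for single introns, overlap with exons, processed transcripts, antisense and lincRNA transcripts, and the grey exceeds the red for protein-coding transcripts; the 253 members that M1 does not hold are not shown.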

How the data were processed

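The deposited table holds signal values, not counts: the authors removed rRNA reads with STAR 2.5.0, aligned the rest to exonic and intronic sequences (mm10 per the processing notes) and quantified them with RSEM, and exons and introns share 1 scale per library. Values of 1 or less are missing. The strand setting of counting is not given in the sources used here. Rows named as lincRNA exons and introns were counted as exon and intron rows, and 0 columns were left unmapped. All values were used as deposited.

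Log2(value + 1), or its intron minus exon difference, was fitted with limma 3.58.1 in R 4.3.3 across 33103 transcripts, with labeling time as a covariate and Benjamini-Hochberg adjustment at 0.05. Levels used a mean-variance trend and ratios none. The added 1 shrinks differences of low values. Tables and plots used Python 3.11.15, pandas 2.3.3, numpy 2.4.6 and matplotlib 3.10.9. The fits were tested on simulated data with 200 changed transcripts. In the test of the ratio against 0, 122 were recovered at a log2 size of 1 and 199 at 2. Of 200 transcripts set to 0, it called 13 and 10. For labeled against total RNA, a log2 size of 1 was recovered for 103 in exons and for 0 in introns and the ratio. For 60 against 15 min, a log2 size of 4 was recovered for 167 in exons and for 0 in introns and the ratio.

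Annotation, sequence and small RNAs came from GENCODE M1 on NCBIM37. The members and gene lists were chosen with earlier results of these data known. For each gene the transcript with the most exonic RNA stands in the text, for the 8 most abundant members, the 8 highest called and 4 lowest ratios in labeled RNA, the 3 transcripts on each side of the limit, and up to 6 genes per list. No transcript passed the test of 60 against 15 min to be named. Other transcripts, named after their values were seen, are said to be so or are the extremes of a described comparison. Replicate numbers come from the labels, and the protocol ties them to sub-cultures. As a check of the pairing, labeled and total libraries of 1 number and time did not deviate together (r of −0.15, 0.05 and −0.42 for the ratio at 15, 30 and 60 min). Alternatives are given in the closing section.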

Additional observations from a re-analysis of the deposited data

Results flagged for a closer look

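In 72 groups of 6 libraries (named transcripts in labeled or total RNA), 6 had 1 library far from the other 5 in the log2 intron to exon ratio, where chance gives about 1 in 20. Of these, 5 were in the labeled 60 min library of replicate 2. That library had −0.28 for Srsf2 (others 1.18 to 1.49), −1.06 for Srsf1 (−0.14 to 0.14) and −1.14 for TCONS_00050084 (−0.02 to 0.25). It had 3.68 for ENSMUST00000192564 (others 1.88 to 2.48) and 2.14 for ENSMUST00000186317 (−0.05 to 0.57). Thus the same library was lowest for 3 transcripts and highest for 2, and its intronic share of 6.99% was the lowest of the labeled libraries. Whether that share played a part was not tested. For all 5 transcripts, the total 15 min library of replicate 2 and the total 60 min library of replicate 1 leaned the same way. They had −0.10 and −0.01 for TCONS_00050084 (other total libraries 0.20 to 0.37), and 0.85 and 0.82 for ENSMUST00000186317 (−0.05 to 0.20). At 60 min, a labeled library of replicate 2 thus went with a total library of replicate 1. What these libraries share was not tested. The remaining flagged group was Gm13936 in total RNA, with 1.27 in the 15 min library of replicate 2 against 0.20 to 0.43 in the others.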

How the results depend on the processing

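Counts are of members called, and those marked "of all" are over all transcripts tested, 33103 unless given. Introns higher in labeled RNA numbered 547 in the report (623 of all) and 641 with a pseudocount of 20 (756 of all). There were 550 without the exonic minimum (3642 of all 46195) and 632 with a mean-variance trend (789 of all). A replicate block gave 588 (685 of all), and leaving out libraries or a replicate gave 383 to 643 (1.23 to 2.80% of all). With 1 transcript per gene there were 226 of 436 for this (252 of all 14164). Labeled against total RNA then gave 74 for exons, 70 for introns and 28 for the ratio (3084, 2494 and 3205 of all), as fewer transcripts were tested. Without the labeled replicate 2 libraries of 15 and 60 min, chosen after the data were seen, the 4 counts were 842, 281, 609 and 334. In the same order, the shares of all transcripts were then 5.78%, 27.0%, 86.6% and 83.2%. A pseudocount of 20 gave 153 (9158 of all) for the ratio of labeled to total RNA, against 83 (8240 of all). The cause was not tested. Leaving out replicate 1 or 2 gave 0 to 8 for exons (139 in the report), 48 to 207 for introns (167) and 12 to 122 for the ratio (83), with fewer samples. For 60 against 15 min, introns gave 0 to 10 and the ratio and exons 0 with 1 labeled library left out, the 10 being without the labeled 60 min library of replicate 1, with 1 without that of replicate 2. Leaving out replicate 1 or 2 there could not be fitted. As the numbers were not shown to pair the samples, the replicate block is given only here. It gave 133, 210 and 100 for exons, introns and ratio of labeled against total RNA (6107, 7678 and 10018 of all). Crossing the labeled numbers at 60 min, also chosen after the data were seen, gave 139, 143 and 65 (6664, 4613 and 6701 of all). Among named transcripts, the call was lost in 23 cases over 6 transcripts (Srsf2, Srsf6, Rbm39, Atf2, Jarid2 and Gm13936, as given with each) and gained in 29 cases over 7 (Gas5, Zfp57, Zfp125, Zfp184, Zfp260, ENSMUST00000176519 and ENSMUST00000186317), with the direction kept. Log2 ratios near 0 changed sign. With libraries or a replicate left out they ran from −0.061 to 0.40 for Hspa8 and from −0.041 to 0.22 for Snhg3 (lowest without the labeled 60 min library of replicate 1 and without replicate 1), from −0.30 to 0.10 for TCONS_00050084, from −0.65 to 0.40 for Pole4, from −0.22 to 0.18 for Recql and from −0.36 to 0.039 for Srsf1. Without both labeled replicate 2 libraries of 15 and 60 min they were 0.11, 0.40, 0.21 and 0.0091 for the last 4, and Recql had 0.0047 with a pseudocount of 20. The authors give only an average depth and that of each library is unknown, so no limit from counting can be given.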
